A study of Mus musculus with 12 samples.

Results

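The polyamine synthesis and catabolism genes were examined at their ATAC-seq peaks in mouse CD4+ T cells. The genes were Odc1, Amd1, Srm, Sms, Smox, Paox, Sat1, Azin1, Oaz1 and Oaz2. A peak was counted as theirs when 1 of these 10 genes had the nearest protein-coding gene model within 100 kb. That rule gave 31 of the 48443 peaks of the count table (build mm10): 9 each at Odc1 and Azin1, 3 each at Sms and Smox, 2 at Amd1, and 1 each at Srm, Paox, Sat1, Oaz1 and Oaz2. The rule is by distance alone, and a region may act on another gene.

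ATAC-seq uses the Tn5 transposase to cut open chromatin, so the counts in a peak measure accessibility, not transcription. Naive CD4+ T cells (CD44-, CD62L+, CD25-) were sorted from the spleen of C57BL/6 mice and activated on plates with anti-CD3 and anti-CD28, each at 1 µg/ml. Non-pathogenic Th17 cells (Th17n) were grown with 25 ng/ml IL-6 and 2 ng/ml TGFb1, and induced regulatory T cells (iTreg) with 2 ng/ml TGFb1 and no IL-6. Both cultures received vehicle or 100 µM DFMO and were harvested at 68 h. DFMO (difluoromethylornithine) inactivates ornithine decarboxylase, the product of Odc1. Each of the 4 groups held 3 libraries, from animals labelled 1 to 3, and the same 3 animal numbers recur in every group; all cells were cultured in vitro from wild-type animals.

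Polyamines (putrescine, spermidine and spermine) are small cationic molecules that proliferating lymphocytes make after activation. Ornithine decarboxylase forms putrescine, Srm and Sms lengthen it to spermidine and spermine with aminopropyl groups that the Amd1 product supplies, and Smox, Sat1 and Paox run the path backwards. The antizymes Oaz1 and Oaz2 send ornithine decarboxylase for degradation and limit polyamine uptake, while Azin1 (antizyme inhibitor) binds antizymes and frees the enzyme.

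Of the 31 peaks, 9 lay at a gene's start or end. For 7 genes there was a peak over a RefSeq transcription start (Odc1, Amd1, Sms, Paox, Sat1, Oaz1 and Oaz2), and for Srm and Azin1 the peak covered 1 end of the gene model. The Paox peak lies inside its gene model because that model begins upstream of the RefSeq starts, and placing it here was decided after the files were seen. No peak covered the Smox start. The other 22 peaks lay inside gene models or in the flanks.

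RefSeq promoter windows (GRCm38.p6, 250 bases before to 50 after a start) were found for 8 of the 10 genes, 10 windows in all, with none matched for Srm and Azin1. The bases before the start are printed for 5 windows, 5′ to 3′ on the gene's strand, because their peaks carry the results below or, for Smox, because no peak covers it. Capitals mark matches to 4 short motifs on either strand: GGGCGG (GC box), CACGTG (E-box), CCAAT and TATAAA.
Odc1, chr12:17544623-17544872, plus strand: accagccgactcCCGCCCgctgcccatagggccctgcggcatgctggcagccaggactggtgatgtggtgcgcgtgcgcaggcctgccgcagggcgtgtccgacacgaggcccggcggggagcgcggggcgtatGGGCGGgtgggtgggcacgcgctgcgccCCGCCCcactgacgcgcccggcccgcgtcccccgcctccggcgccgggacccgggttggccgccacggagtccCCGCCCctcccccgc
Amd1, chr10:40302189-40302438, minus strand: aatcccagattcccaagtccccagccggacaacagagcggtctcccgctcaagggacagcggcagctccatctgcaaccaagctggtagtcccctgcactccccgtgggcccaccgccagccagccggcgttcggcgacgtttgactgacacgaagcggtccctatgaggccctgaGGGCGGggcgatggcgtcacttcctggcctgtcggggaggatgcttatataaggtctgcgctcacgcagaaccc
Sms, upstream start, chrX:157492288-157492537, minus strand: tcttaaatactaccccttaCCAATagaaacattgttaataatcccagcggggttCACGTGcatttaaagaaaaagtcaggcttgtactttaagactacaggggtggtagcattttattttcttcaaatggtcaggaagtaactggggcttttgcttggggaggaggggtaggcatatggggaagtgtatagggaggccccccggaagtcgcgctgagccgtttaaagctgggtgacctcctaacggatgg
Smox, chr2:131491612-131491861, plus strand: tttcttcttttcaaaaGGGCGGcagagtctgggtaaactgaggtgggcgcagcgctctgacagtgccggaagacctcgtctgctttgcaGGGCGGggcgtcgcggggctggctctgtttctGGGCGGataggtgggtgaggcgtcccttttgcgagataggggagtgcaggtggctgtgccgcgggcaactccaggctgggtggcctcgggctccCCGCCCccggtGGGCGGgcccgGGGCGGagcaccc
Oaz1, chr10:80826406-80826655, plus strand: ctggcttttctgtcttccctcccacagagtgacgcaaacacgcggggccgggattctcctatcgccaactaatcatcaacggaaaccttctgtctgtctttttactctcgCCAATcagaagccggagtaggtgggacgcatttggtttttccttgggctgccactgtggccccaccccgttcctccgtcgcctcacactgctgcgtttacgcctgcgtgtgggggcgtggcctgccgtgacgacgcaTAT
The capitals that end the Oaz1 sequence open a TATAAA match that runs across the start. The Sms start-site peak (chrX:157491043-157492366) covers only the bases of the printed Sms window nearest the start. Both matches marked in that window lie outside the peak. The other Sms window, chrX:157491319-157491618, lies inside the peak, holds 4 GC boxes and is not printed.

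A GC box was found in 8 of the 10 windows, against 35.7% of 32851 RefSeq promoter windows of the same length. The 2 Paox windows overlap and hold the same 3 GC boxes, so they are not separate promoters, and Sms also has 2 windows. The Smox window held 6 matches and the Odc1 window 4. CACGTG was found in the upstream Sms window alone (7.15% of all windows), TATAAA in the Oaz1 window alone (13.6%), and CCAAT in those same 2 windows (37.4%). TGANTCA, the AP-1 site, was in none of the 10 (7.81%). The windows were rich in CpG, with 12 to 42 CpG each against a median of 7 over all windows. These matches describe letters in a window, not sites in use.

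The deposited values are raw counts per peak. Total counts per library ran from 1020937 to 6496550, and levels are given as CPM, a peak's counts divided by the library's total and scaled to parts per 1000000. A difference passed when edgeR's quasi-likelihood test gave an adjusted p under 0.05, with Benjamini-Hochberg adjustment over 43726 tested peaks, and log2 changes are followed by their standard error. Of the 31 polyamine peaks, 30 had enough counts to be tested; the exception was a weak Azin1 flank peak at 0 to 5.88 CPM. As a check of the labels, summed CPM over 29 peaks of 6 Th17 genes was 523 to 576 in vehicle Th17n libraries and 207 to 259 in vehicle iTreg libraries. Over 49 peaks of 6 Treg genes the 2 groups overlapped, at 1488 to 1608 and 1445 to 1554. The 1 Foxp3 peak went against the iTreg label, at 12.6 to 21.5 CPM in vehicle Th17n and 2.05 to 6.47 CPM in vehicle iTreg libraries. So did the sum at Ctla4, at 400 to 440 and 283 to 354 CPM in the same order. Ikzf2 (84.2 to 124 and 128 to 143 CPM) and Tnfrsf18 (201 to 215 and 239 to 286 CPM) went with the label, and Il2ra and Il2rb overlapped. Of 4 B cell genes only Pax5 had peaks (18.6 to 50.3 CPM over all libraries), at peaks of all 4 myeloid genes the summed level was 52.9 to 74.6 CPM in vehicle Th17n and 38.8 to 47.1 CPM in vehicle iTreg libraries. Over all libraries Lyz2 and Csf1r stayed at 0 to 2.56 CPM, Itgam stood at 14.1 to 47.5 CPM and Cd14 at 15.2 to 27.9 CPM. Of 5 cytotoxic T and NK genes Cd8a had no peak, and the other 4 summed to 161 to 182 CPM in vehicle Th17n and 192 to 213 CPM in vehicle iTreg libraries. Among them Cd8b1 held 15.3 to 45.9 CPM, Gzmb 56.3 to 120.3 CPM, Klrb1c 52.7 to 106 CPM and Prf1 1.30 to 5.88 CPM over all libraries. The part of these lists in the results was not tested.

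The lineage comparison asked which polyamine gene regions differed between Th17n and iTreg cells. In vehicle cultures, the peaks that passed away from the starts were nearly all higher in Th17n cells, and those that passed at starts or gene ends were all lower. Of the 21 tested peaks away from starts and gene ends, 10 were higher in Th17n cells, 1 was lower and 10 did not pass. Of the 9 at starts or gene ends, 0 were higher, 6 were lower and 3 did not pass (Sms, Paox and Sat1). Over all tested peaks 44.6% passed in this comparison, 25.2% higher and 19.3% lower, and peaks at gene ends went mostly lower in general (3.84% higher, 32.5% lower). Of 30024 tested peaks inside or outside gene models, 9810 were higher and 4353 lower. The median log2 change was −0.38 for the 9 peaks and −0.33 for all gene-end peaks, and 0.44 for the 21 others and 0.19 for all peaks inside or outside gene models. The split by place was thus also present in the whole table.

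With DFMO in both cultures, 7 of the 21 peaks were higher in Th17n cells and 1 lower, and 0 of the 9 were higher and 4 lower. Over all tested peaks 37.2% passed, 22.5% higher and 14.7% lower. Gene-end peaks alone gave 3.88% higher and 25.0% lower. Of 30024 tested peaks inside or outside gene models, 8687 were higher and 3269 lower. Summed over the 9 start and gene-end peaks, vehicle Th17n libraries held 608 to 622 CPM, DFMO Th17n 640 to 718, vehicle iTreg 756 to 826 and DFMO iTreg 778 to 848. Over the other 22 peaks, the sums ran the other way, at 482 to 531, 406 to 444, 333 to 366 and 280 to 296 CPM. The total over all 31 peaks overlapped between the groups, at 1064 to 1165 CPM. The share of all counts that fell at gene ends moved with these sums, from 45.5 to 46.4% in vehicle Th17n libraries to 53.8 to 56.2% in vehicle iTreg libraries, and its part in the result was not tested.

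**Figure D1:**
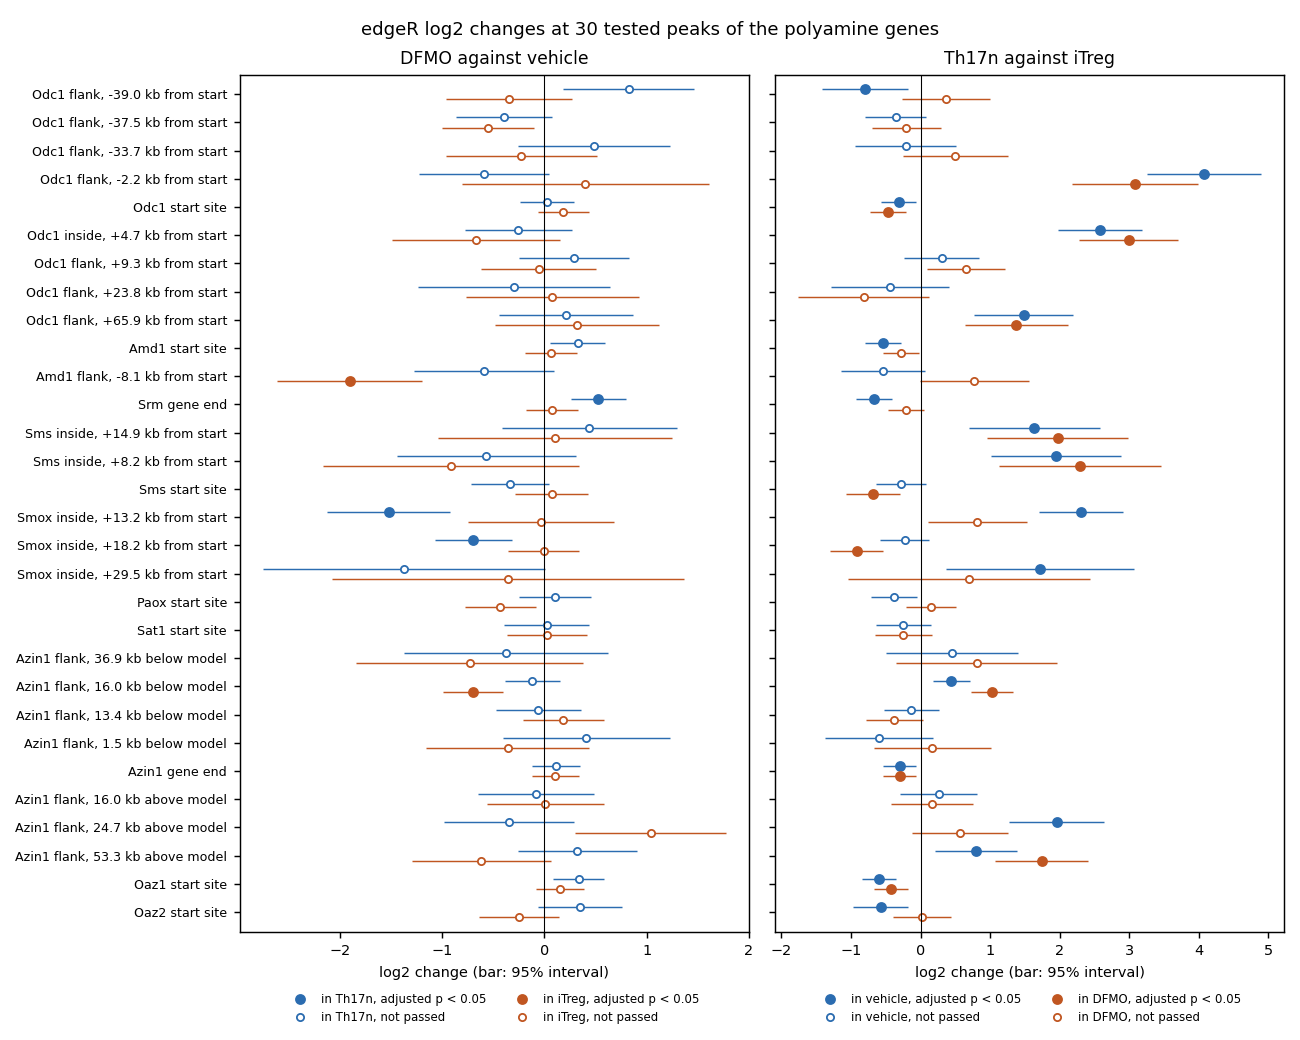
edgeR log2 changes with 95% intervals at the 30 tested peaks, for DFMO against vehicle (left, in each lineage) and Th17n against iTreg (right, in each treatment). Filled points passed the adjusted p of 0.05; peaks at starts lie left of 0 in the vehicle lineage comparison, while the Odc1 peak 2.2 kb upstream lies at 4.07.

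Odc1, the gene of the enzyme that DFMO inhibits, had the widest lineage difference of the 30 tested polyamine peaks, at a short peak just upstream of its start. The peak spans chr12:17542557-17542824, centred 2.2 kb before the start and outside the gene model. In animals 1, 2 and 3 it held 26.4, 27.4 and 27.9 CPM in vehicle Th17n cells and 18.2, 18.2 and 16.9 CPM with DFMO. The iTreg libraries held 0, 0.86 and 2.83 CPM in vehicle and 2.35, 2.85 and 1.17 CPM with DFMO. Every Th17n library lay above every iTreg library, and the 0 in animal 1 allows up to 1.53 CPM (3 counts at that depth, counting error only). The log2 difference was 4.07 ± 0.41 in vehicle (adjusted p = 2.9e-11) and 3.08 ± 0.45 with DFMO (adjusted p = 3.9e-07, edgeR). Without iTreg vehicle animal 3 the vehicle value was 5.35. The DFMO change within Th17n, −0.59 ± 0.32, did not pass (adjusted p = 0.25) although the 2 sets of 3 libraries did not overlap.

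The Odc1 body held a second such peak at chr12:17549351-17549768, 4.7 kb past the start. It stood at 30.4, 34.0 and 35.2 CPM in vehicle Th17n cells and 35.7, 22.5 and 23.4 CPM with DFMO. In iTreg cells it stood at 3.07, 6.23 and 5.66 CPM in vehicle and 3.52, 1.90 and 4.10 CPM with DFMO. The lineages did not overlap in either treatment, with log2 differences of 2.58 ± 0.30 (edgeR adjusted p = 1.2e-09) and 2.99 ± 0.36 (3.9e-09).

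The Odc1 start site itself showed the opposite order and a far smaller difference. The peak, chr12:17544271-17545482, held 86.2, 81.1 and 102 CPM in vehicle Th17n cells and 111, 102 and 107 CPM in vehicle iTreg cells. Under DFMO it held 88.4, 86.5 and 95.7 CPM in Th17n and 134, 102 and 122 CPM in iTreg cells, which did not overlap. The log2 difference between lineages was −0.31 ± 0.13 in vehicle (edgeR adjusted p = 0.039) and −0.47 ± 0.13 with DFMO (0.0034; 0.061 with libraries thinned to equal depth). The vehicle call was lost without any 1 of 8 libraries: Th17n vehicle 1 or 2, Th17n DFMO 1 or 2, iTreg vehicle 1, 2 or 3, or iTreg DFMO 3 (adjusted p 0.053 to 0.31). It was also lost with library totals as the scale (0.12), with DESeq2 (0.11), with only the 2 groups in the fit (0.052) and at equal depth (0.72).

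Both outermost flanks of Odc1 also passed. The peak 65.9 kb past the start (chr12:17610396-17611118) held 7.84, 16.5 and 15.3 CPM in vehicle Th17n cells against 4.60, 4.08 and 5.66 CPM in vehicle iTreg cells. With DFMO the values were 20.1, 17.3 and 9.77 CPM against 5.87, 5.69 and 6.15 CPM, so Th17n was higher in every library. The log2 differences were 1.48 ± 0.35 (edgeR adjusted p = 0.00056) and 1.38 ± 0.37 (0.0026), both lost at equal depth (0.052 and 0.13). The peak 39.0 kb before the start (chr12:17505704-17506137) was lower in vehicle Th17n cells, at 6.86, 11.4 and 9.98 CPM against 11.8, 18.9 and 18.4 CPM. The DFMO libraries held 20.8, 17.3 and 13.7 CPM in Th17n and 8.22, 19.0 and 11.7 CPM in iTreg cells, which overlap. Its vehicle difference, −0.80 ± 0.31 (edgeR adjusted p = 0.029), was lost without Th17n vehicle 1, 2 or 3 (0.10, 0.051 and 0.11), without iTreg vehicle 2 or 3 (0.12 and 0.091), with DESeq2 (0.063) and at equal depth (0.071). The remaining 4 Odc1 peaks passed in neither lineage comparison.

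**Figure D2:**
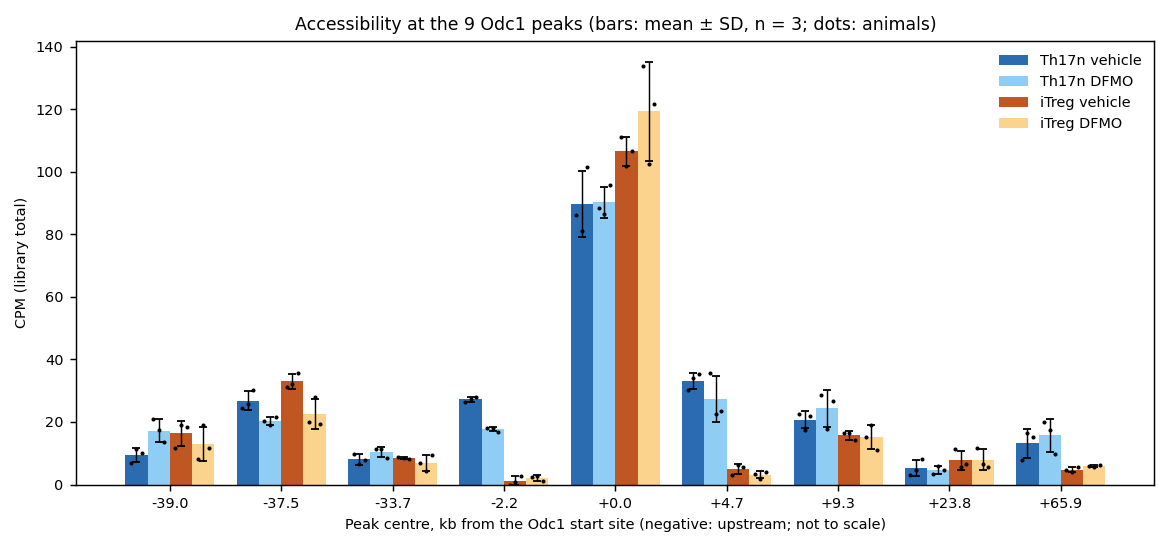
CPM at the 9 Odc1 peaks, ordered by the distance of their centre from the RefSeq start (kb, not to scale), in the 4 groups; bars are means ± SD (n = 3) and dots are animals. The peaks at −2.2 and +4.7 kb are near 0 in iTreg cells (means of 1.23 and 4.99 CPM in vehicle) while the start-site peak is high in all 4 groups.

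Amd1 encodes adenosylmethionine decarboxylase, which makes the aminopropyl donor. Its start-site peak, chr10:40300860-40302919, held 67.6, 77.0 and 74.3 CPM in vehicle Th17n cells and 109.96, 99.95 and 98.5 CPM in vehicle iTreg cells. With DFMO it held 103, 77.0 and 91.8 CPM in Th17n and 106, 103 and 107 CPM in iTreg cells. The vehicle groups did not overlap, and the log2 difference was −0.54 ± 0.13 (edgeR adjusted p = 0.00064). With DFMO the difference, −0.28 ± 0.13, did not pass (0.088).

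Srm, spermidine synthase, had a single peak at 1 end of its gene model, chr4:148590789-148592171. It held 68.6, 75.3 and 64.9 CPM in vehicle Th17n cells and 116, 97.6 and 107 CPM in vehicle iTreg cells. The log2 difference was −0.67 ± 0.13 (edgeR adjusted p = 3.5e-05), the largest drop among the start and gene-end peaks in the vehicle comparison. With DFMO, at 95.8, 98.7 and 105 CPM in Th17n and 129, 104 and 99.6 CPM in iTreg cells, the groups overlapped (−0.21 ± 0.13, adjusted p = 0.20).

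Sms, spermine synthase on the X chromosome, had 2 inside peaks that were higher in Th17n cells and a start-site peak that passed only with DFMO, where it was lower. Distances are from the downstream of its 2 RefSeq starts. The inside peak at +14.9 kb (chrX:157476261-157476731) held 9.79, 9.08 and 8.22 CPM in vehicle Th17n cells and 0.511, 2.79 and 3.84 CPM in vehicle iTreg cells. Under DFMO it held 12.7, 11.2 and 11.7 CPM in Th17n and 1.17, 6.64 and 1.17 CPM in iTreg cells. The iTreg values of 0.511, 1.17 and 1.17 CPM were 1, 2 and 4 counts. The lineages did not overlap in either treatment, with log2 differences of 1.64 ± 0.47 (edgeR adjusted p = 0.0039) and 1.97 ± 0.50 (0.0017). Without iTreg DFMO animal 2 the latter was 3.23.

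The second inside Sms peak, at +8.2 kb (chrX:157482998-157483295), held 11.8, 8.47 and 15.0 CPM in vehicle Th17n cells and 2.56, 2.15 and 3.64 CPM in vehicle iTreg cells. With DFMO the values were 10.4, 8.65 and 2.60 CPM against 0.587, 0.474 and 2.64 CPM, where the groups overlap because animal 3 was nearly equal in the 2 lineages. The values 0.587 and 0.474 CPM are 1 count each, below the 1.76 and 1.42 CPM that 3 counts come to there. The 2.60 CPM in Th17n is 4 counts. The log2 differences were 1.94 ± 0.47 (edgeR adjusted p = 0.00061) and 2.29 ± 0.58 (0.0015). They moved to 3.87 at equal depth and to 3.67 without iTreg DFMO animal 3. The Sms start-site peak (chrX:157491043-157492366) held 49.95, 42.3 and 39.3 CPM in vehicle Th17n and 49.6, 49.9 and 49.1 CPM in vehicle iTreg cells, which overlap. The DFMO libraries held 33.5, 34.6 and 31.9 CPM in Th17n and 69.8, 49.3 and 38.4 CPM in iTreg cells. The Th17n libraries lay below all iTreg libraries there, with a log2 difference of −0.68 ± 0.19 (edgeR adjusted p = 0.0041).

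Among the catabolic genes, Smox (spermine oxidase, which turns spermine back to spermidine) had 3 peaks, all inside its gene model. The peak at +13.2 kb (chr2:131504424-131505635) held 49.95, 42.2 and 43.5 CPM in vehicle Th17n cells and 5.11, 9.89 and 9.30 CPM in vehicle iTreg cells. The lineages did not overlap, and the log2 difference was 2.31 ± 0.30 (edgeR adjusted p = 2.2e-08). With DFMO it was 0.82 ± 0.35 (adjusted p = 0.064), and 0.86 with the animal number as a replicate block, which passed (0.049). The peak at +29.5 kb (chr2:131521135-131521544) was weak, at 6.86, 3.85 and 5.87 CPM in vehicle Th17n and 3.07, 0.86 and 1.21 CPM in vehicle iTreg cells. With DFMO it held 2.60, 2.60 and 0 CPM in Th17n and 0, 2.85 and 0.586 CPM in iTreg cells, where 0 allows up to 1.95 and 1.76 CPM. Its vehicle difference, 1.72 ± 0.67 (edgeR adjusted p = 0.034), was lost without Th17n vehicle 1 (0.066), iTreg vehicle 2 (0.16) or iTreg vehicle 3 (0.12) and with DESeq2 (0.062).

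The Smox peak at +18.2 kb (chr2:131509689-131510435) went the other way with DFMO. It held 52.9, 65.3 and 61.7 CPM in vehicle Th17n and 85.4, 61.9 and 62.1 CPM in vehicle iTreg cells, which overlap. Under DFMO it held 43.9, 23.8 and 44.3 CPM in Th17n and 83.9, 51.7 and 67.4 CPM in iTreg cells. All Th17n libraries were then below all iTreg libraries, with a log2 difference of −0.92 ± 0.19 (edgeR adjusted p = 0.00015).

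Paox, a peroxisomal oxidase of acetylated polyamines, and Sat1, the acetyltransferase that marks spermidine and spermine for breakdown or export, passed in neither lineage comparison. The Paox peak (chr7:140125328-140126174) held 42.1, 39.9 and 47.0 CPM in vehicle Th17n and 64.4, 47.5 and 50.7 CPM in vehicle iTreg cells, a log2 difference of −0.38 ± 0.17 (edgeR adjusted p = 0.059). The DFMO libraries held 46.8, 44.6 and 44.3 CPM and 42.3, 34.6 and 40.1 CPM. The Sat1 peak (chrX:155215924-155216772) held 44.1, 31.6 and 34.1 CPM in vehicle Th17n and 35.8, 46.4 and 36.0 CPM in vehicle iTreg cells. Its DFMO values were 37.4, 28.6 and 39.7 CPM and 36.4, 32.7 and 48.4 CPM. All 4 Sat1 groups overlapped, and the 95% interval of the vehicle lineage difference ran from −0.64 to 0.15.

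Of the regulators, Azin1 had 1 strong peak at an end of its gene model and 8 in its flanks. The gene-end peak (chr15:38518093-38520002) held 130.3, 144 and 129 CPM in vehicle Th17n and 144, 186 and 145 CPM in vehicle iTreg cells. With DFMO it held 155, 133 and 143 CPM and 156, 174 and 176 CPM. The lineages met at 144 CPM in vehicle and at 155 and 156 CPM with DFMO, and both differences were −0.30 ± 0.12 (edgeR adjusted p = 0.030 and 0.042). The vehicle call was lost without Th17n vehicle 1 or 3, Th17n DFMO 1 or 2 or iTreg vehicle 2 (0.070 to 0.34), and the DFMO call without Th17n vehicle 3, Th17n DFMO 2 or 3 or iTreg DFMO 2 or 3 (0.052 to 0.17). Both were lost with library totals, DESeq2 and equal depth (0.052 to 0.12), and the DFMO call also with only the 2 groups in the fit (0.063).

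Another 3 Azin1 flank peaks were higher in Th17n cells. The strongest, chr15:38470243-38471458, lies 16.0 kb from the model and held 114, 103 and 99.0 CPM in vehicle Th17n and 61.4, 78.2 and 77.0 CPM in vehicle iTreg cells. Under DFMO it held 99.1, 93.9 and 89.9 CPM against 39.3, 51.2 and 42.5 CPM. Neither pair of groups overlapped, and the log2 difference was 0.44 ± 0.13 in vehicle (edgeR adjusted p = 0.0060; 0.056 without iTreg vehicle 1) and 1.02 ± 0.15 with DFMO (2.9e-07).

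The peak 24.7 kb beyond the other end (chr15:38543960-38544599) held 20.6, 16.6 and 18.2 CPM in vehicle Th17n and 3.07, 5.16 and 4.45 CPM in vehicle iTreg cells, a log2 difference of 1.96 ± 0.34 (edgeR adjusted p = 6.4e-06). With DFMO the groups came closer, at 11.7, 13.4 and 17.6 CPM against 5.87, 9.01 and 11.1 CPM, and the difference did not pass (0.57 ± 0.34, adjusted p = 0.19). The peak 53.3 kb beyond (chr15:38572577-38573123), which overlaps 2 long noncoding RNA models, held 18.6, 22.5 and 27.6 CPM against 10.7, 10.96 and 16.2 CPM in vehicle. The DFMO libraries held 18.5, 39.4 and 30.0 CPM against 2.93, 9.01 and 11.1 CPM. The vehicle difference was 0.80 ± 0.30 (edgeR adjusted p = 0.025), lost without Th17n vehicle 3 (0.11), iTreg vehicle 1 (0.066) or iTreg vehicle 2 (0.11). The DFMO difference was 1.74 ± 0.33 (4.2e-05).

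Oaz1, the main antizyme, was lower in Th17n cells at its start site (chr10:80826104-80827062). It held 97.0, 87.3 and 96.6 CPM in vehicle Th17n and 159, 126 and 124 CPM in vehicle iTreg cells. With DFMO it held 118, 106 and 121 CPM against 143, 139 and 159 CPM. The lineages did not overlap in either treatment, with log2 differences of −0.60 ± 0.12 (edgeR adjusted p = 6.1e-05) and −0.42 ± 0.12 (0.0050; 0.073 at equal depth). Oaz2, a second antizyme, held 36.2, 28.9 and 24.4 CPM in vehicle Th17n and 37.3, 44.5 and 40.0 CPM in vehicle iTreg cells at its start (chr9:65676061-65676818). Under DFMO it held 39.6, 30.3 and 37.8 CPM and 31.7, 38.4 and 31.7 CPM, which overlap. Its vehicle difference, −0.58 ± 0.20 (edgeR adjusted p = 0.014), was lost without Th17n vehicle 2 (0.064), Th17n vehicle 3 (0.16) or iTreg vehicle 2 (0.082) and at equal depth (0.37).

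**Figure D3:**
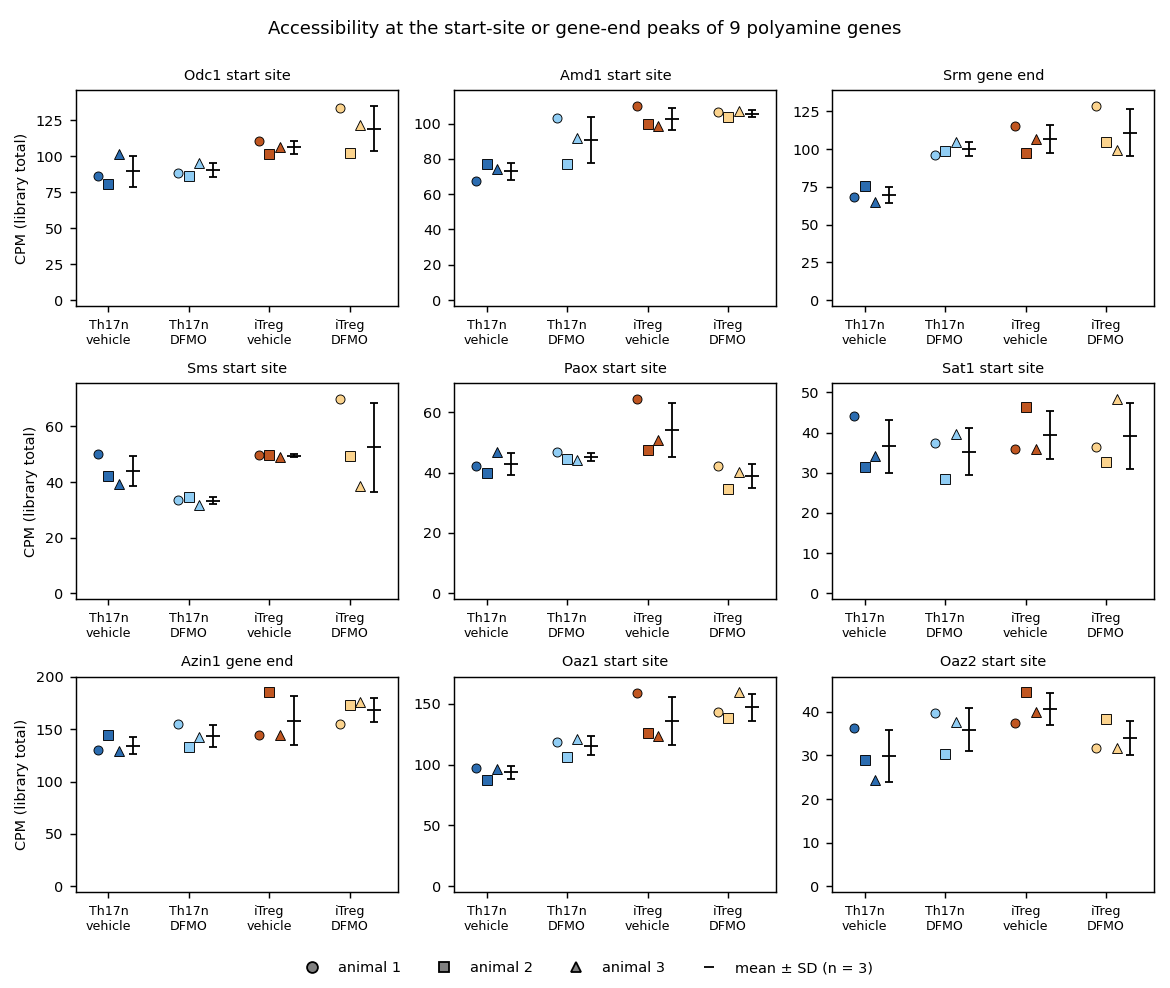
CPM by group at the 9 start-site or gene-end peaks, with animals as symbols and mean ± SD (n = 3) beside them; every axis includes 0 CPM. The iTreg groups sit above the Th17n groups in the Oaz1 panel in both treatments and in the Srm and Amd1 panels in vehicle, while the Sat1 groups overlap.

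Of the 9 start and gene-end peaks, the Oaz1 start was the most accessible per kb of peak. Its median over the 12 libraries was 128 CPM per kb. Odc1 (84.0), Azin1 (75.8) and Srm (71.7 CPM per kb) followed, and Paox (52.5), Oaz2 (48.6), Amd1 (48.2), Sat1 (42.7) and Sms (34.6 CPM per kb) came last. The order differed between groups: in vehicle Th17n cells the mean was 50.8 CPM per kb for Paox and 50.3 for Srm, and 43.1 for Sat1, 39.4 for Oaz2 and 35.4 for Amd1, while in DFMO iTreg cells it was 51.3 for Amd1 and 46.1 for Paox. The ranges of neighbours in the median order overlap; Oaz1 spanned 91.1 to 166 and Odc1 67.0 to 111 CPM per kb. The order compares openness per length of peak, not transcript levels.

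The DFMO comparison asked what inhibition of ornithine decarboxylase did to these regions within each lineage. In Th17n cells, 1 of the 30 tested peaks was higher with DFMO (Srm) and 2 were lower (both Smox). Over all tested peaks 8.78% passed, 4.5% higher and 4.28% lower, so 3 of 30 is close to that share. In iTreg cells 0 were higher and 2 lower (Amd1 and Azin1 flanks), against 8.56% of all peaks, 3.84% higher and 4.72% lower. Beside the 0 that were higher, DESeq2 also gave 0. An unadjusted edgeR p under 0.05 in either direction was found at 5 of the 30 peaks, against 9963 of all 43726 tested peaks. The median log2 change over the 30 peaks was −0.02 in both lineages, and 0.01 and −0.01 over all tested peaks.

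The Smox peak at +13.2 kb fell most in Th17n cells. Against 49.95, 42.2 and 43.5 CPM in vehicle, it held 11.4, 17.7 and 17.6 CPM with DFMO (45.2 ± 4.17 and 15.6 ± 3.63, SD, n = 3). All DFMO libraries lay below all vehicle libraries, and the log2 change was −1.52 ± 0.30 (edgeR adjusted p = 0.00068). This call held in all 18 alternative settings, with log2 changes of −1.36 to −1.69 when single libraries were left out. In iTreg cells the peak was already low, and DFMO gave 11.2, 1.90 and 11.1 CPM against 5.11, 9.89 and 9.30 CPM in vehicle (−0.03 ± 0.36, adjusted p = 0.97). This DFMO comparison in Th17n cells and the vehicle lineage comparison share the vehicle Th17n libraries.

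The Smox peak at +18.2 kb fell by 0.70 ± 0.19 on the log2 scale in Th17n cells (edgeR adjusted p = 0.014), from 52.9–65.3 to 23.8–44.3 CPM. The call was lost without Th17n vehicle 2 (0.082), without Th17n DFMO 2 (0.14) and at equal depth (0.14). In iTreg cells it was −0.01 ± 0.17 (adjusted p = 0.99). The third Smox peak, at +29.5 kb, changed by −1.38 ± 0.69 in Th17n cells, which did not pass (0.22). Summed over its 3 peaks, Smox held 109.7, 111 and 111 CPM in vehicle Th17n and 57.8, 44.1 and 61.9 CPM in DFMO Th17n libraries, and 93.6, 72.7 and 72.6 CPM in vehicle iTreg and 95.1, 56.5 and 79.1 CPM in DFMO iTreg libraries.

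Srm was the 1 peak that rose. In Th17n cells it went from 68.6, 75.3 and 64.9 CPM to 95.8, 98.7 and 105 CPM (69.6 ± 5.26 and 99.8 ± 4.60, SD, n = 3), with no overlap. The log2 change was 0.53 ± 0.13 (edgeR adjusted p = 0.0075), lost without Th17n vehicle 3 (0.12), Th17n DFMO 1 (0.051) or Th17n DFMO 3 (0.058). In iTreg cells it was 0.07 ± 0.13 (adjusted p = 0.79).

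In iTreg cells the Amd1 flank peak fell most. This peak, chr10:40309891-40310773, is centred 8.1 kb before the start, and Cdk19 is the next nearest gene. It held 13.3, 25.6 and 32.3 CPM in vehicle and 1.76, 8.07 and 8.21 CPM with DFMO (23.7 ± 9.66 and 6.01 ± 3.68, SD, n = 3). The groups did not overlap, the log2 change was −1.91 ± 0.35 (edgeR adjusted p = 0.00033), and the call held in all 18 alternatives. In Th17n cells it held 9.79, 18.2 and 21.7 CPM in vehicle and 13.6, 9.52 and 11.1 CPM with DFMO, which overlap (−0.59 ± 0.34, adjusted p = 0.30). Between lineages it did not pass in either treatment, except with the animal number as a replicate block under DFMO (0.96, adjusted p = 0.038).

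The Azin1 flank peak 16.0 kb from the model fell in iTreg cells from 61.4, 78.2 and 77.0 to 39.3, 51.2 and 42.5 CPM (72.2 ± 9.41 and 44.4 ± 6.17, SD, n = 3), without overlap. The log2 change was −0.70 ± 0.15 (edgeR adjusted p = 0.0013; 0.094 at equal depth). In Th17n cells the change was −0.12 ± 0.14 (adjusted p = 0.66).

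**Figure D4:**
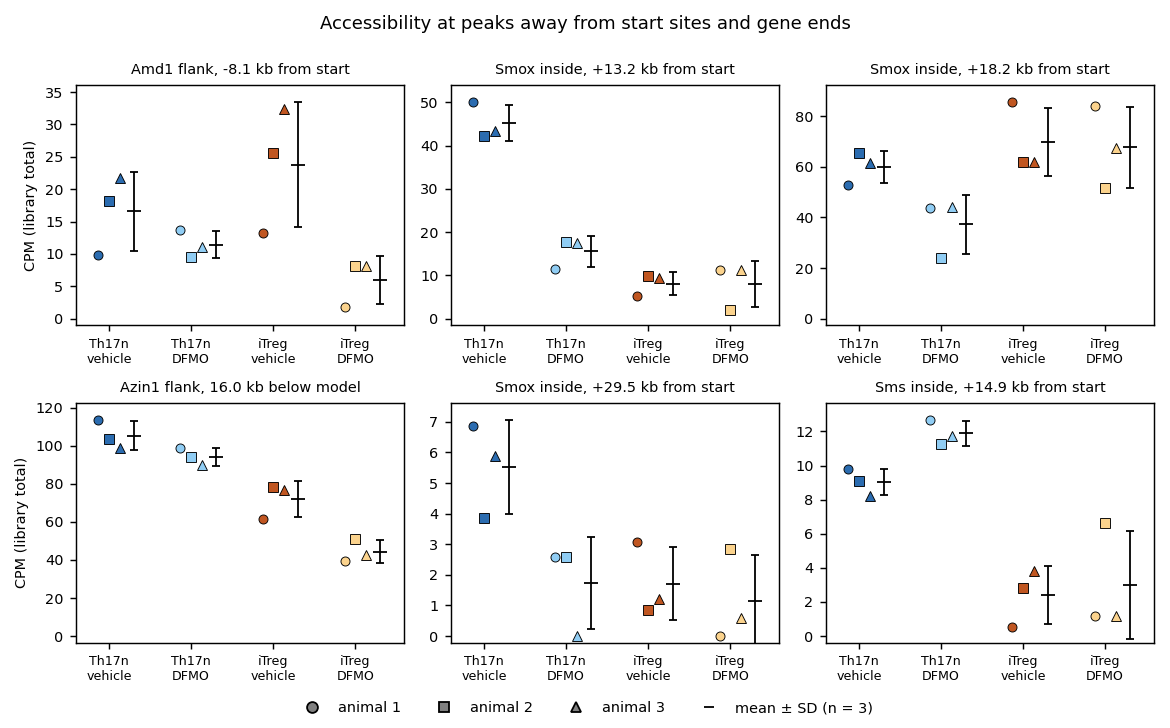
CPM by group at 6 peaks away from starts and gene ends, with animals as symbols and mean ± SD (n = 3). The Smox peak at +13.2 kb stands at 42.2 to 49.95 CPM in vehicle Th17n cells and at 17.7 CPM or less in the other 9 libraries; the Amd1 and Azin1 peaks drop with DFMO in iTreg cells.

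The Odc1 start site, at the target of DFMO, gave a log2 change of 0.03 ± 0.13 in Th17n cells (95% interval −0.23 to 0.29, edgeR adjusted p = 0.93) and 0.19 ± 0.12 in iTreg cells (−0.06 to 0.44, 0.39). The sign of the Th17n value flipped in 8 of 18 alternative settings. None of the 9 Odc1 peaks passed in either DFMO comparison with edgeR, and 2 intervals left out 0: the peak at −39.0 kb in Th17n (0.82 ± 0.32, adjusted p = 0.094) and the peak at −37.5 kb in iTreg cells (−0.55 ± 0.22, 0.12). The start sites of Amd1 (0.32 ± 0.13, adjusted p = 0.12) and Oaz1 (0.33 ± 0.12, 0.082) had positive values in Th17n cells that did not pass. Those of Sms (−0.34 ± 0.19), Paox (0.10 ± 0.18), Sat1 (0.02 ± 0.21), Oaz2 (0.34 ± 0.21) and the Azin1 gene end (0.11 ± 0.12) did not pass either, with adjusted p from 0.29 to 0.97. In iTreg cells the largest value among these was −0.43 ± 0.17 at Paox (adjusted p = 0.11).

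Whether the DFMO effect differed between Th17n and iTreg cells was tested with the interaction term. None of the 30 peaks passed with edgeR or DESeq2, while 1.31% of all tested peaks did (0.835% higher, 0.478% lower). An unadjusted edgeR p under 0.05 was found at 10 of the 30, against 6094 of all 43726 tested peaks. The smallest p was at the Smox peak at +13.2 kb, a difference of −1.49 ± 0.47 (95% interval −2.44 to −0.55, adjusted p = 0.095). The Azin1 peak 24.7 kb from the model, which had passed in neither DFMO comparison, gave −1.39 ± 0.48 (edgeR adjusted p = 0.14). The values were 0.58 ± 0.20 at the Azin1 peak 16.0 kb from the model (adjusted p = 0.13), 1.31 ± 0.50 at the Amd1 flank (0.18), −0.69 ± 0.26 at the Smox peak at +18.2 kb (0.18) and 0.46 ± 0.18 at Srm (0.22). Without iTreg DFMO animal 2, both Smox peaks passed, at −1.91 ± 0.42 (+13.2 kb, edgeR adjusted p = 0.0045) and −0.84 ± 0.25 (+18.2 kb, 0.0498); no other single library left out gave a call. With all 12 libraries, the 5 calls with DFMO, each made in 1 lineage, were not shown to differ between lineages.

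Other genes of the pathway were followed in 5 lists of 29 genes, of which 22 had peaks, 68 in all and 62 tested. DFMO raised 4 of the 62 and lowered 0 in Th17n cells, and raised 3 and lowered 0 in iTreg cells. Over all tested peaks 4.5% were higher and 4.28% lower in Th17n cells, and 3.84% higher and 4.72% lower in iTreg cells. The counts of raised peaks are near those shares. The median log2 changes were 0.09 and 0.03. The hypusine list has Eif5a, the translation factor whose hypusine is built from spermidine. The Eif5a gene-end peak rose with DFMO in both lineages, from 124 ± 12.8 to 188 ± 12.6 CPM in Th17n and from 169 ± 10.8 to 227 ± 8.83 CPM in iTreg cells (SD, n = 3). Its log2 changes were 0.61 ± 0.11 (edgeR adjusted p = 0.00023) and 0.45 ± 0.11 (0.0045), both kept in all 18 alternatives.

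In the transport list, an inside peak of Slc12a8, a solute carrier gene, rose from 2.51 ± 1.22 to 7.22 ± 3.91 CPM in Th17n and from 8.58 ± 1.33 to 20.2 ± 4.50 CPM in iTreg cells (SD, n = 3). The log2 changes were 1.69 ± 0.48 (edgeR adjusted p = 0.019) and 1.22 ± 0.34 (0.019). The Th17n call was lost without Th17n vehicle 2 or 3 or Th17n DFMO 2 or 3 (0.074 to 0.15) and at equal depth (0.064), and the iTreg call without iTreg vehicle 2 or iTreg DFMO 1 or 3 (0.074 to 0.089). Mat2a and Mat2b, the adenosylmethionine synthetase genes, each had a peak that rose in Th17n cells (0.45 ± 0.14 and 1.03 ± 0.33, edgeR adjusted p = 0.034 and 0.042). Those calls were lost in 11 and 9 of 18 alternatives, Mat2a without any 1 of the 6 Th17n libraries or iTreg DFMO 1 or 3 (0.057 to 0.37) and Mat2b without Th17n vehicle 1, 2 or 3, Th17n DFMO 1 or 2 or iTreg DFMO 3 (0.050 to 0.25). Ass1, which makes argininosuccinate in arginine synthesis, had an inside peak that rose in iTreg cells (0.94 ± 0.25, 0.013), lost without iTreg vehicle 3 (0.054) or iTreg DFMO 3 (0.051) and at equal depth (0.17).

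Between lineages in vehicle, 12 of the 62 peaks were higher in Th17n cells and 18 lower, against 25.2% and 19.3% of all tested peaks. With DFMO 11 were higher and 12 lower, against 22.5% and 14.7%. By list, the vehicle counts (higher, then lower) were 1 and 1 of 4 tested for the paralogue list, 0 and 3 of 4 for hypusine, 3 and 5 of 18 for transport, 2 and 5 of 15 for ornithine supply and 6 and 4 of 21 for the methionine cycle. A flank peak of Slc3a2, the heavy chain of amino acid exchangers, was at 20.1 ± 5.56 CPM in vehicle Th17n and 3.11 ± 0.942 CPM in vehicle iTreg cells (SD, n = 3; 2.45 ± 0.38, edgeR adjusted p = 6.6e-07). An inside peak of Slc7a1, the cationic amino acid transporter that brings in arginine, went the other way, at 2.42 ± 1.17 and 14.0 ± 2.31 CPM (−2.81 ± 0.46, adjusted p = 2.8e-06; −2.19 without Th17n vehicle 2). A flank peak 98.2 kb from Mtap, which salvages the by-product of Srm and Sms, held 29.0 ± 6.32 and 4.18 ± 0.389 CPM (2.69 ± 0.33, adjusted p = 5.4e-09). The Mtap gene-end peak went the other way, at 35.6 ± 6.08 and 56.6 ± 16.6 CPM (−0.67 ± 0.20, edgeR adjusted p = 0.0042). In the interaction none of the 62 passed.

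Across the 12 libraries, the peaks whose log2 CPM followed the Odc1 start site most closely were a gene-end peak of Pgrmc1 (Pearson r = 0.971), a flank peak of Neto2 (0.965) and a gene-end peak of Bicra (0.950). For the Odc1 peak at −2.2 kb the closest was an inside peak of Acly, the ATP citrate lyase (0.992). Next came a peak on chromosome 16 with no protein-coding gene within 100 kb (0.989) and an inside peak of Pard3b (0.989). The Acly peak held means of 50.2, 40.0, 6.24 and 8.96 CPM in vehicle Th17n, DFMO Th17n, vehicle iTreg and DFMO iTreg cells. These are descriptions over libraries that share the group differences, chosen from all tested peaks. Among the polyamine peaks, the Odc1 peak at −2.2 kb followed the inside peaks of Odc1 (0.905) and of Sms at +14.9 kb (0.892) most closely, and ran opposite to the Oaz1 start site (−0.883).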

How the data were processed

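Open chromatin was assayed by ATAC-seq in 12 libraries (3 animals in each of 4 groups), tagmented for 30 min and sequenced as 37 bp pairs. The deposited table holds raw counts per peak and library, with no scaling by the authors; 0 columns were left unused. Per the submitters' processing notes the tools were Trimmomatic, FastQC, Bowtie2 and MACS2. Their versions and settings, the counting unit (reads or fragments) and any pooling before peak calling were not stated there. Peak starts are printed as deposited, with no stated 0- or 1-based convention.

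Peaks were assigned to protein-coding models of RefSeq GRCm38.p6, the assembly behind mm10. The fit used edgeR 4.0.16 under R 4.3.3, with 1 model of 4 group means, TMM factors, low peaks removed by filterByExpr (minimum count 10) and the quasi-likelihood test, and was checked on simulated data. Alternatives were DESeq2 1.42.0, library totals, no filter, equal depth by thinning, the animal as a block, the 2 groups alone and single libraries left out. Depth limits weak peaks in the smallest libraries, where 3 counts come to 2.94 CPM.

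Named peaks are those at gene starts or ends and those that passed in 1 of the 5 comparisons; other pathway genes are named where they passed, at most 2 per list and comparison, and not all are printed. Members and lists were chosen with earlier results of these data known. The animal labels pair libraries across groups, and the deviations of 18 same-animal pairs correlated at −0.055 to 0.075. For 7 of the 12 libraries, the library of another group with the highest such correlation carried the same animal number.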

Additional observations from a re-analysis of the deposited data

How the results depend on the processing

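The 77 peak results were recomputed under up to 18 alternatives each, 1380 values in all, of which 1259 kept their direction and side of the threshold, 96 lost a call and 25 changed sign. All 25 sign changes were at differences that had not passed. With DFMO in Th17n cells, the Odc1 start turned to −0.0037 with DESeq2 and −0.012 with no filter (−0.086 to 0.096 with single libraries left out), Paox to −0.069 at equal depth, and Sat1 to −0.0028 with library totals, −0.015 with DESeq2, −0.019 with no filter and −0.26 at equal depth (−0.11 to 0.11 leaving libraries out). Leaving libraries out also gave −0.0013 to 0.15 at the Azin1 gene end in Th17n cells and, in iTreg cells, −0.020 to 0.14 at Srm, −0.15 to 0.27 at the Sms start and −0.19 to 0.17 at Sat1.

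A limit of 10 kb left 19 peaks, and overlap or 1 kb left 15. At 10 kb, 1 peak fell with DFMO in iTreg cells, and 6 were higher in Th17n in vehicle and 4 with DFMO. DESeq2 called 4 peaks lower in Th17n in vehicle. At equal depth, peaks called lower numbered 1 with DFMO in Th17n, 1 with DFMO in iTreg, 3 between lineages in vehicle and 2 with DFMO, and all peaks called numbered 1825, 1360, 10406 and 9553, and 189 for the interaction, against 3841, 3742, 19483, 16280 and 574. The cause was not tested beyond the lower counts that thinning leaves.

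Leaving out single libraries, polyamine peaks higher and lower with DFMO numbered 0 to 1 and 1 to 2 in Th17n (all peaks 1637 to 4607), and 0 to 1 and 2 to 3 in iTreg cells (1416 to 4351). Between lineages they numbered 8 to 10 and 3 to 8 in vehicle (3 without iTreg vehicle 2), and 7 to 8 and 4 to 6 with DFMO. In the interaction, 0 to 2 were lower, the 2 being the Smox peaks at +13.2 and +18.2 kb without iTreg DFMO 2 (all peaks 192 to 1370). With the animal as a replicate block, the pairing gave 1 higher and 2 lower in Th17n, 0 and 2 in iTreg, 10 and 7 between lineages in vehicle, 9 and 5 with DFMO and 0 in the interaction; beyond the Amd1 and Smox peaks named above it changed no other polyamine call.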
